A study of Mus musculus with 12 samples.

Results

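The 10 genes described here, Fos, Fosb, Fosl1, Fosl2, Jun, Junb, Jund, Atf3, Batf and Maff, encode subunits of AP-1 and 3 of their close relatives. They were followed through the open chromatin around them. Peaks of accessible DNA from 12 mouse ATAC-seq libraries, on the 19 autosomes and X, were merged wherever they overlapped by 1 bp or more, and each merged region was assigned to the nearest protein-coding gene within 100 kb. Of 153346 regions, 136540 (89.0%) had such a gene, and 109 of these (0.0798%) belonged to 1 of the 10 genes. No region was equally near to a member and to another gene. Nearest position is the only link between a region and a gene here, and it does not show that the region acts on that gene.

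AP-1 is a family of leucine-zipper transcription factors. Jun proteins pair with each other or with Fos proteins, and the pairs bind the short sequence TGANTCA, while pairs with ATF or CREB proteins prefer the longer TGACNTCA. Many of these genes are immediate early genes, switched on within minutes by growth factors through MAP kinases, and in mesenchymal cells AP-1 is known for its part in proliferation, matrix remodelling and bone biology.

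ATAC-seq reads where a transposase can insert into chromatin, so a peak marks accessible DNA, not transcription, and in bulk cells a region open in fewer cells cannot be told apart from one less open in each. The libraries came from mouse cells that the labels call MSCLCs, in a study of the Ewing sarcoma fusion EWS::FLI1, of the growth factor IGF1 and of YAP1 in bone mesenchymal stem cells. The genotype labels give 5 groups. EF_IGF1_xeno had 1 library, from line S_221. EF_IGF1 had 2 libraries, from lines S_220 and S_221. EF had 4 libraries, where replicates 1 and 3 were titled S_220 and replicates 2 and 4 S_221. Wt_IGF1 had 1 library, titled BM_IGF1. Wt had 4 libraries, titled WT_1_1, WT_2_1, BM_unt and S_203_0 for replicates 1 to 4. The labels do not spell out EF, xeno or MSCLCs, nor the age of any animal or what the groups share beyond the cell type. The series' design text uses the names WT, EFPrx1, ha-EFPrx1 and hr-EFPrx1 without tying them to single libraries. Flowcell BSF_0654 carried EF and Wt replicates 1 and 2, and BSF_1013 carried the remaining 8 libraries. Nothing says which libraries came from separate animals or cultures, so p-values below measure only the spread between these libraries, and the EF, EF_IGF1 and EF_IGF1_xeno libraries shared 2 lines.

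Read totals per library are not stated by the labels or files used, so depth is represented by the length of each peak list. The lists held 43416 peaks in EF_IGF1_xeno, 59325 and 63506 in EF_IGF1, 27332 to 67340 in EF, 83718 in Wt_IGF1 and 7748 to 69703 in Wt, with the shortest list in Wt replicate 1. Wt replicate 2 stood apart at blood genes: 65.3% of the 98 regions of 11 hematopoietic marker genes had a peak in it, while the other libraries had 8.16% to 41.8%. Regions of the 14 mesenchymal markers were called at 1.07% in Wt replicate 1, 25.6% in Wt replicate 2 and 18.5% to 54.8% in the others. Of all regions with a gene, 5.37% were called in Wt replicate 1, 41.0% in Wt replicate 2 and 17.6% to 52.5% in the others. EF_IGF1 replicate 1, titled S_220, did not follow its line throughout. On its own flowcell it shared 59.9% of the regions called in either library with EF replicate 4 (S_221), which had the longest EF list, and 40.6% with EF replicate 3 (S_220). On the other flowcell it shared 37.7% with EF replicate 2 (S_221), which had the shortest EF list, and 40.8% with EF replicate 1 (S_220). It is called here the library labelled S_220.

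The number of regions differed widely among the genes, from Fos with 27 and Jun with 23 down to Fosl1 and Jund with 3 each. Atf3 had 14, Fosl2 12, Fosb and Batf 8 each, Maff 6 and Junb 5. The median over the 10 genes was 8 regions, against 4 over all 17956 genes that had a region, and 4.53% of all genes had as many regions as Fos or more, 6.3% as many as Jun and 15.8% as many as Atf3. At the lower end, 42.0% had as many as Maff, 49.0% as many as Junb and 69.4% as many as Fosl1 or Jund. Only 21 of the 109 regions (19.3%) overlapped their gene, against 62.1% of all regions with a gene. The regions were 498 bp wide at the median, against 417 bp for all regions with a gene.

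In each library a larger share of AP-1 regions than of all regions was called, other than in Wt_IGF1. EF_IGF1_xeno had 42 of the 109 regions called (38.5%, against 27.9% of all regions). The EF_IGF1 libraries had 58 and 54 (53.2% and 49.5%, against 38.1% and 41.0%). The EF libraries had 45, 27, 44 and 50, or 24.8% to 45.9%, against 17.6% to 43.9% of all regions. Wt_IGF1 had 55 called (50.5%, against 52.5%). The Wt libraries had 15, 63, 43 and 56, or 13.8% to 57.8%, against 5.37% to 44.5%. The number called averaged 56.0 ± 2.83 in EF_IGF1 (SD, n = 2), 41.5 ± 10 in EF (SD, n = 4) and 44.2 ± 21.2 in Wt (SD, n = 4). EF and Wt overlapped widely, and Wt replicates 1 and 2 were the lowest and the highest of all 12 libraries.

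**Figure D1:**
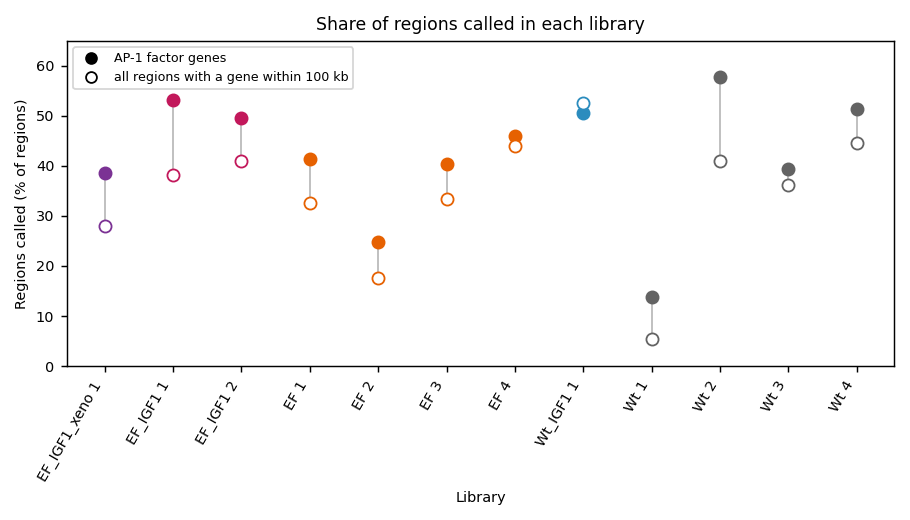
Share of regions called in each library, in percent, for the 109 regions of the AP-1 factor genes (filled points) and for all 136540 regions with a protein-coding gene within 100 kb (open points). The filled point is the higher in each library other than Wt_IGF1, and the lowest pair of points belongs to Wt replicate 1, at 13.8% and 5.37%.

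Regions open throughout the series made up a larger share of the AP-1 regions than of all regions. All 12 libraries had a peak in 10 of the 109 regions (9.17%, against 4.2% of all regions), and another 7 (6.42%, against 4.63%) were called in all libraries but Wt replicate 1. At the other end, 37 regions (33.9%, against 35.7%) were called in 1 library, 19 of them in Wt replicate 2 (17.4%, against 15.3%). These shares are descriptions of 10 chosen genes, and no test was made of the list.

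**Figure D2:**
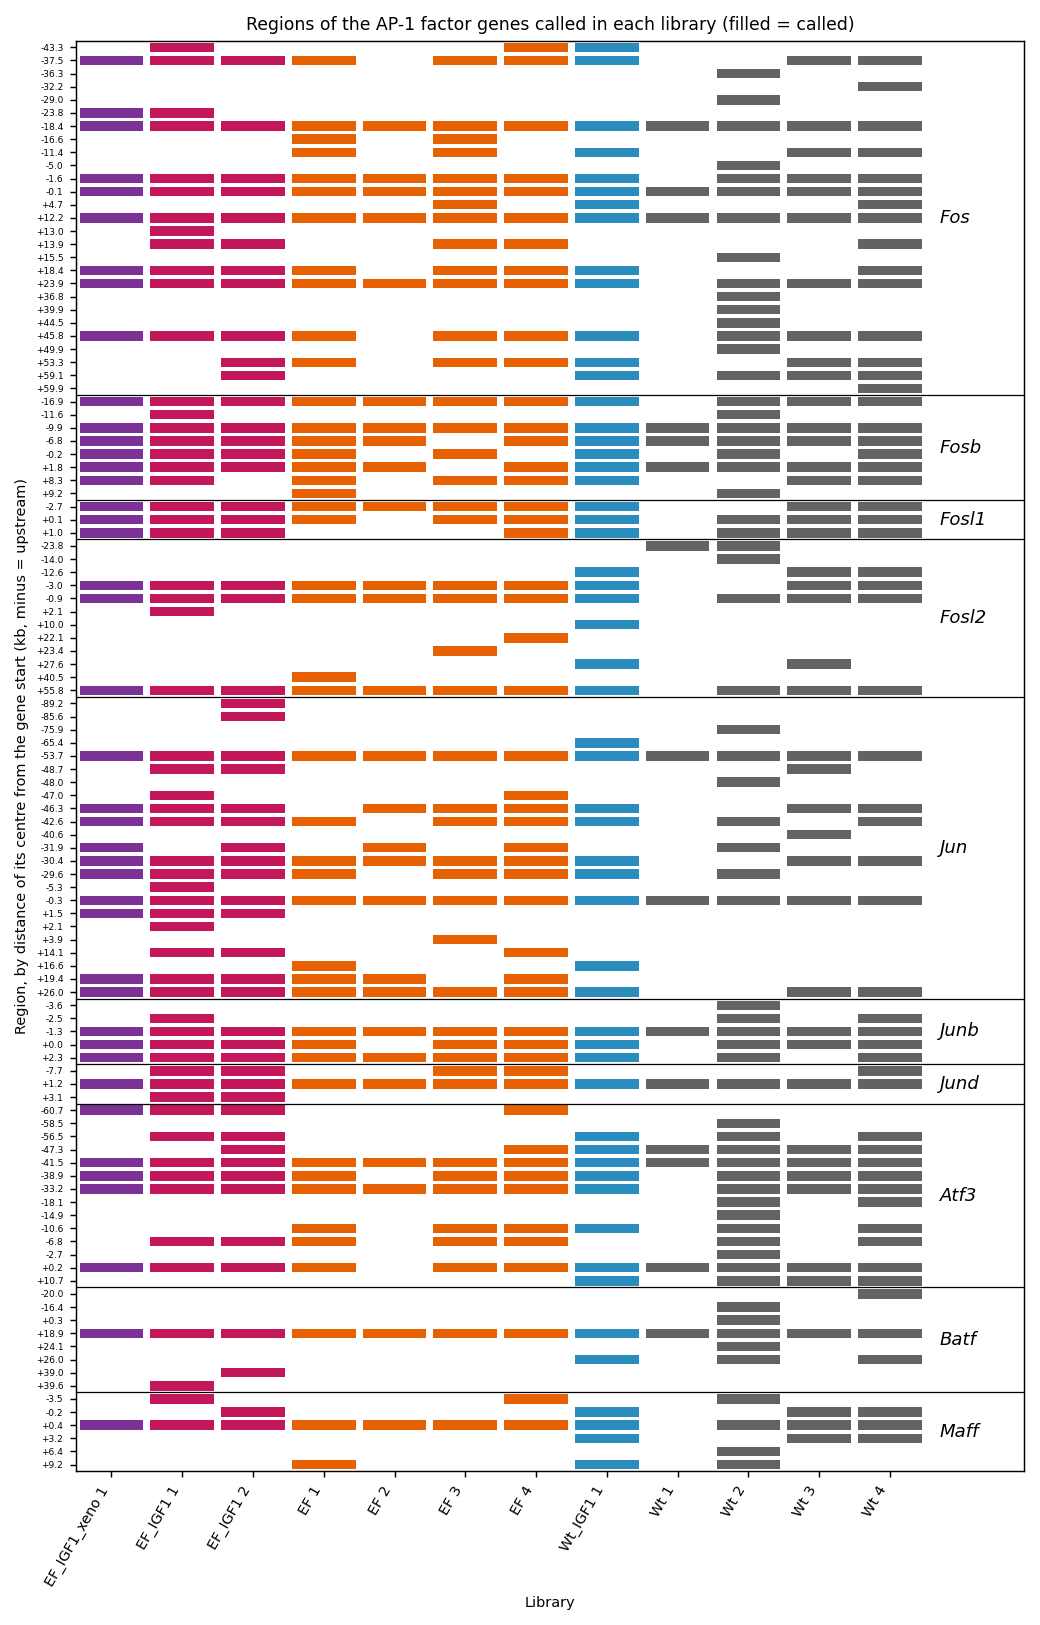
Map of calls for all 109 regions, ordered by gene and by the distance of the region's centre from the gene start in kb (for Fosl1 from the lower end of the gene), over the 12 libraries. A filled cell means that the library had a peak in the region. Of the rows, 10 are filled in every library, and 19 cells in the Wt replicate 2 column stand alone in their row.

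Gene starts differed among the members. RefSeq (build GRCm38.p6) held start windows for 9 of the 10 genes, 11 windows in all, each reaching from 250 bases before a start to 50 after it. The windows of Jun and Fos carried a peak in all 12 libraries. The Atf3 window did so in 11 libraries, without EF replicate 2, the Junb window in 10, without EF replicate 2 and Wt replicate 1, and the Fosb window in 8, without EF replicates 2 and 4 and Wt replicates 1 and 3. The 3 start windows of Maff had a peak in 4, 11 and 8 libraries, in their order along the strand. No library had a peak on the windows of Fosl2, Jund or Batf. Among all 32619 windows of the table, 15.8% had a peak in every library and 51.6% in none.

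At Fosl2 and Jund the open region lay beside the annotated start. The region nearest the Fosl2 start (chr5:32134974-32136202) ended 269 bp before the gene and was called in all libraries but Wt replicate 1. At Jund the region chr8:70698254-70699625, which lay inside the gene, was called in all 12. Batf had a single call near its start, at chr12:85686874-85687151 in Wt replicate 2, with a fold of 4.68 over local background.

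Sequences are shown for 2 starts open in every library, Jun and Fos, for the Maff start open in most, and for the Batf start, where no library had a peak on the window. Each gives the 250 bases before the annotated start, 5′ to 3′ on the gene's strand, from RefSeq (GRCm38.p6). Jun is at chr4:95052223-95052472 on the minus strand, Fos at chr12:85473640-85473889 on the plus strand, Maff at chr15:79347270-79347519 on the plus strand and Batf at chr12:85686470-85686719 on the plus strand. Capitals mark TGACNTCA in Jun and Maff and TATAAA in Fos, and no searched motif was found in Batf.
Jun: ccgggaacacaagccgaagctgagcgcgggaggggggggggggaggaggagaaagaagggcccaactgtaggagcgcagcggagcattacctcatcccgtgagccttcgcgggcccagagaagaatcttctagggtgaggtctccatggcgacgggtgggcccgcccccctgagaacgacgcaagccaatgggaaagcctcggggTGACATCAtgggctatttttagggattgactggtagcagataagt
Fos: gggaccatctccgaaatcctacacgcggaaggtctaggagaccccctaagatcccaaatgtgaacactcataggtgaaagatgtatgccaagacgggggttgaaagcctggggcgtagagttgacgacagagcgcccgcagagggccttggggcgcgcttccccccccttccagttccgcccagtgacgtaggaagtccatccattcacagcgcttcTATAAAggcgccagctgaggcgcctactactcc
Maff: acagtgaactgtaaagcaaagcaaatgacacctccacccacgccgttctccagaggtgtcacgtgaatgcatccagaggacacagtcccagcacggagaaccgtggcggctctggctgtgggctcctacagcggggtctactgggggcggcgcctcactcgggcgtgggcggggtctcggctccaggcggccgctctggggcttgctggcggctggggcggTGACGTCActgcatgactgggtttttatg
Batf: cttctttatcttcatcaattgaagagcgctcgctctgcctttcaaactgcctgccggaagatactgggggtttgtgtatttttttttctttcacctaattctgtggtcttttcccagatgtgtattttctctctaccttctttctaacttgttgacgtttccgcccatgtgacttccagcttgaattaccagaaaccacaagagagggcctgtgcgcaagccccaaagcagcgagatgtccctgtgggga

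The searched motifs were TGANTCA (the AP-1 site), TGACNTCA (the CRE-like site), GGAAGGAA (a tandem ETS core), GGAATG (a TEAD site), TATAAA and the CArG box bound by SRF. Both strands were read over the same 250 bases of all 32619 windows. GGAAGGAA and GGAATG can share bases, as can TATAAA and the CArG box. TGACNTCA stood in 3 of the 11 member windows, 45 bases before the Jun start and 29 and 45 bases before 2 Maff starts, against 7.39% of all windows. TATAAA stood 33 bases before the Fos start, the only member window with it, against 12.4% of all windows. The other 4 motifs were in none of the 11 member windows, against 6.78% of all windows for TGANTCA, 3.02% for GGAAGGAA, 12.6% for GGAATG and 1.48% for the CArG box. A match is a run of letters and not a measured site. Bases beyond these 250 were not read, though the open region over the Fos start began further upstream. GC content of the sequences ranged between 46.4% for Batf and 68.8% for Fosb, with a median of 52.4% over all windows.

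Jun, the subunit that can pair with itself as well as with Fos proteins, had the largest difference in calls between EF and Wt of the 10 members when plain counts over all 8 libraries were compared. Its gene (chr4:95049036-95052222, minus strand) had 10 of its 23 regions called in EF_IGF1_xeno, 14 and 14 in EF_IGF1, 8, 7, 8 and 11 in EF, 9 in Wt_IGF1 and 2, 7, 7 and 6 in Wt. The EF libraries were at or above the highest Wt value, with a tie at 7, and both EF_IGF1 libraries were above every other. EF averaged 8.5 ± 1.73 regions and Wt 5.5 ± 2.38 (SD, n = 4 each), a difference of 3.0 regions. An exact two-sided permutation test over the 70 label orders gave p = 0.0857, and the adjusted p over 17956 genes was 1. The difference was 1.83 without Wt replicate 1, the library with the short list, where Atf3 (-4.17) and Fos (-3.33) differed more. It was 0.25 when regions within 10 kb alone were counted. Per 10000 regions called in the library, Jun differed by 0.391 (exact permutation p = 0.4), less than Atf3 at -1.11. With the 20000 strongest peaks of each list the Jun difference was 3.25 regions (exact permutation p = 0.0286, the lowest that the design allows). With every peak redrawn to a fixed length centred on its summit it was 3.5 (exact permutation p = 0.0571). No gene had an adjusted p under 0.05 in either of these alternatives.

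Of the 23 Jun regions, 9 (39.1%) were called in EF, EF_IGF1 or EF_IGF1_xeno libraries and in no Wt or Wt_IGF1 library. Over all 10 genes this held for 20 of 109 regions (18.3%), near the 21.0% of all regions. The other 11 were at Fosl2 (4), Fos (3), Batf (2), Atf3 (1) and Jund (1). The mirror, Wt or Wt_IGF1 calls alone, held for 4 Jun regions (17.4%), and for 32 of the 109 (29.4%), against 32.9% of all regions. Calls in EF_IGF1 or EF_IGF1_xeno alone were made in 5 Jun regions, of 11 among the members (10.1%, against 6.44%).

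The clearest Jun region of this kind lay 19.4 kb downstream of the start, at chr4:95032531-95033108, or 15927 bp past the gene's end. Its fold over local background was 9.45 in EF_IGF1_xeno, 13.6 and 14.4 in EF_IGF1, and 5.86, 10.8 and 14.9 in EF replicates 1, 2 and 4. EF replicate 3, Wt_IGF1 and the 4 Wt libraries had no peak there. The authors' −log10 p was 23.8 in EF_IGF1_xeno, 51.5 and 35.9 in EF_IGF1, and 8.58, 25.7 and 74.0 in those EF libraries. These values came from 30 summit reads in EF_IGF1_xeno, 59 and 35 in EF_IGF1 and 10, 29 and 85 in EF, as solved from fold and p. Folds and p-values are the authors' own, per list, and are given to describe peaks, since they move with the depth of a library.

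A further region, 1.46 kb into the Jun gene at chr4:95050577-95050944, was called only in EF_IGF1_xeno (fold 3.25) and in EF_IGF1 (folds 2.43 and 3.27). The 3 summits held 103, 88 and 102 reads on local backgrounds of 31.0, 35.6 and 30.5, against 8.72, 12.0 and 10.7 at the strongest Fos region of the same libraries. The region 14.1 kb downstream (chr4:95037877-95038387) was called in EF_IGF1 with folds of 6.37 and 9.92 and in EF replicate 4 with 10.8, and nowhere else. It was absent from EF_IGF1_xeno, the library from the same line as EF_IGF1 replicate 2.

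Most of the strongest Jun regions were shared between the groups. The region over the start (chr4:95051377-95053730) had a peak in all 12 libraries, with a strongest fold of 4.98 in EF_IGF1_xeno, 4.38 and 4.42 in EF_IGF1, 6.0, 5.47, 4.8 and 4.36 in EF, 5.26 in Wt_IGF1 and 4.14, 5.15, 5.45 and 4.74 in Wt. The groups overlapped. The region 53.7 kb upstream (chr4:95105271-95106619) was also called in all 12, with folds of 8.83 in EF_IGF1_xeno, 7.88 and 8.42 in EF_IGF1, 8.16 to 11.4 in EF, 8.63 in Wt_IGF1 and 4.71 to 12.0 in Wt. The region 26.0 kb downstream (chr4:95025809-95026650) held the strongest Jun peak, with a −log10 p of 85.0 in EF replicate 4. Its fold was 10.9 in EF_IGF1_xeno, 11.8 and 9.52 in EF_IGF1, 18.3, 13, 18.6 and 17.1 in EF, 7.86 in Wt_IGF1, and 7.62 and 18.7 in Wt replicates 3 and 4. Wt replicates 1 and 2 had no peak there.

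**Figure D3:**
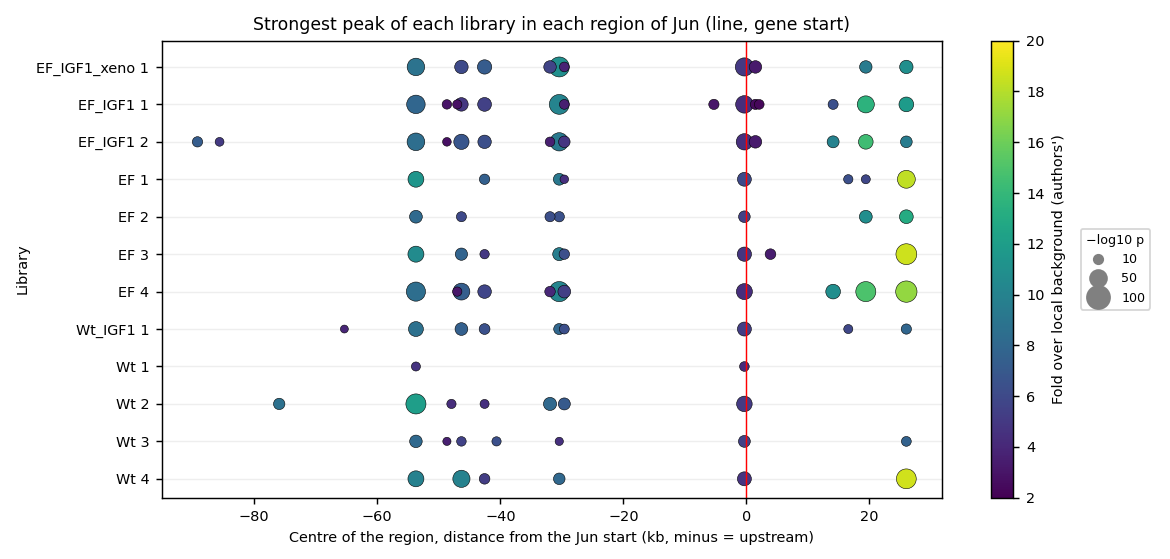
Strongest peak of each library in each Jun region, by distance of the region's centre from the gene start in kb. Colour gives the authors' fold over local background and point size their −log10 p, so rows are comparable in position but not in size across libraries. The region at 19.4 kb is filled in 3 of 4 EF rows and empty in the 5 Wt and Wt_IGF1 rows.

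A Jun region 31.9 kb upstream (chr4:95083938-95084357), picked after its values were seen, followed the line names. It was called in all 4 libraries titled S_221, with folds of 5.59 in EF_IGF1_xeno, 3.57 in EF_IGF1 replicate 2 and 6.33 and 4.01 in EF replicates 2 and 4. None of the 3 libraries titled S_220 had it, and among the Wt libraries replicate 2 did, at 8.08. It was the only one of the 109 regions with calls in every S_221 and no S_220 library, 0.917% against 0.0901% of all regions. The mirror case, every S_220 and no S_221 library, held for 0 of the 109 (0.129% of all regions).

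Junb, which can hold back Jun in some settings, varied more among the Wt than among the EF libraries. Of its 5 regions 3 were called in EF_IGF1_xeno, 4 and 3 in EF_IGF1, 3, 2, 3 and 3 in EF, 3 in Wt_IGF1 and 1, 5, 2 and 4 in Wt. Wt spanned 1 to 5, nearly all that is possible, and enclosed the EF range. The region 1.28 kb upstream (chr8:84979545-84980510) was called in all 12 libraries, with folds between 3.14 in Wt replicate 1 and 5.79 in EF replicate 1. The region over the start (chr8:84978425-84978981) lacked a peak in EF replicate 2 and Wt replicate 1, the shortest lists of their groups. The highest −log10 p at Junb, 40.3 in EF_IGF1_xeno, was at chr8:84976078-84976816, 92 bp past the gene.

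Jund, the most steadily expressed Jun gene in many cells, had 3 regions. EF_IGF1_xeno had 1 called, EF_IGF1 3 and 3, EF 1, 1, 2 and 2, Wt_IGF1 1 and Wt 1, 1, 1 and 2. Both EF_IGF1 libraries were thus above all others, at small numbers. The region open in all 12 libraries had folds of 5.72 in EF_IGF1_xeno, 3.38 and 3.88 in EF_IGF1, 4.53 to 7.12 in EF, 5.78 in Wt_IGF1 and 5.0 to 6.67 in Wt. The groups overlapped, other than EF_IGF1, and folds of different lists were not compared further. A second region, 3.06 kb after the start and 40 bp past the gene (chr8:70700657-70700950), had a peak in EF_IGF1 only, with folds of 2.15 and 2.18.

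**Figure D4:**
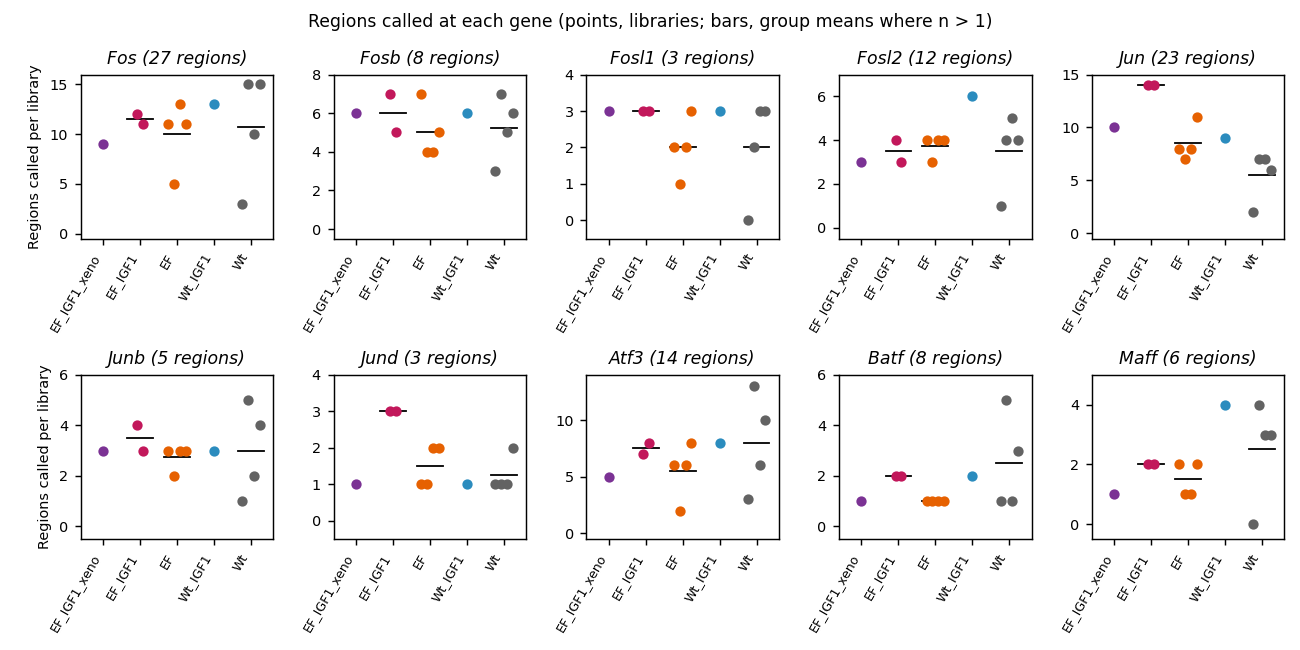
Number of regions called per library at each of the 10 genes, by group. Points are libraries and bars are means of the groups with more than 1 library. Jun is the panel where both EF_IGF1 libraries, at 14, and most EF libraries lie above the 4 Wt libraries.

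Fos, the immediate early partner of Jun, had the most regions of the members and the strongest peak. Its gene (chr12:85473890-85477274, plus strand) had 9 of 27 regions called in EF_IGF1_xeno, 12 and 11 in EF_IGF1, 11, 5, 13 and 11 in EF, 13 in Wt_IGF1 and 3, 15, 10 and 15 in Wt. EF averaged 10 ± 3.46 regions and Wt 10.8 ± 5.68 (SD, n = 4 each), with overlapping ranges. The difference of -0.75 regions did not pass the exact permutation test, with an adjusted p of 1. Of the 27 regions, 3 (11.1%, against 21.0% of all regions) were called in EF, EF_IGF1 or EF_IGF1_xeno libraries alone. Another 8 (29.6%, against 15.3% of all regions) were called in Wt replicate 2 alone, the library with the most blood marker regions. The part of that library's blood marker signal in these 8 was not tested.

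A region 18.4 kb upstream (chr12:85454867-85456108) was the strongest at Fos. Its fold was 13.7 in EF_IGF1_xeno, 12.1 and 10.4 in EF_IGF1, 9.75, 11.8, 8.95 and 11.3 in EF, 10.7 in Wt_IGF1 and 8.2, 10.5, 10.1 and 9.96 in Wt. The −log10 p of 114 in EF_IGF1 replicate 1 was the highest of the 610 peaks in the 109 regions. In every library this peak ranked among the upper 1.49% to 6.62% of its own list. EF and Wt overlapped in fold.

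The region over the Fos start (chr12:85473327-85474332) had folds of 6.56 in EF_IGF1_xeno, 6.69 and 6.04 in EF_IGF1, 7.33, 6.88, 5.03 and 5.32 in EF, 5.25 in Wt_IGF1 and 3.72, 4.72, 5.49 and 5.47 in Wt. The region 12.2 kb downstream (chr12:85485681-85486469) was also open in all 12 libraries, with folds between 4.98 in Wt replicate 1 and 11.4 in EF_IGF1_xeno. Another, 23.9 kb downstream (chr12:85497292-85498332), lacked a peak in Wt replicate 1 only.

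A distal Fos region went the other way. At 59.1 kb downstream (chr12:85532366-85533539) a peak was called in EF_IGF1 replicate 2 with a fold of 5.47, in Wt_IGF1 with 9.5 and in Wt replicates 2, 3 and 4 with 8.16, 10 and 13.8. The 4 EF libraries, EF_IGF1 replicate 1, EF_IGF1_xeno and Wt replicate 1 had none. The Wt calls thus came from both flowcells.

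**Figure D5:**
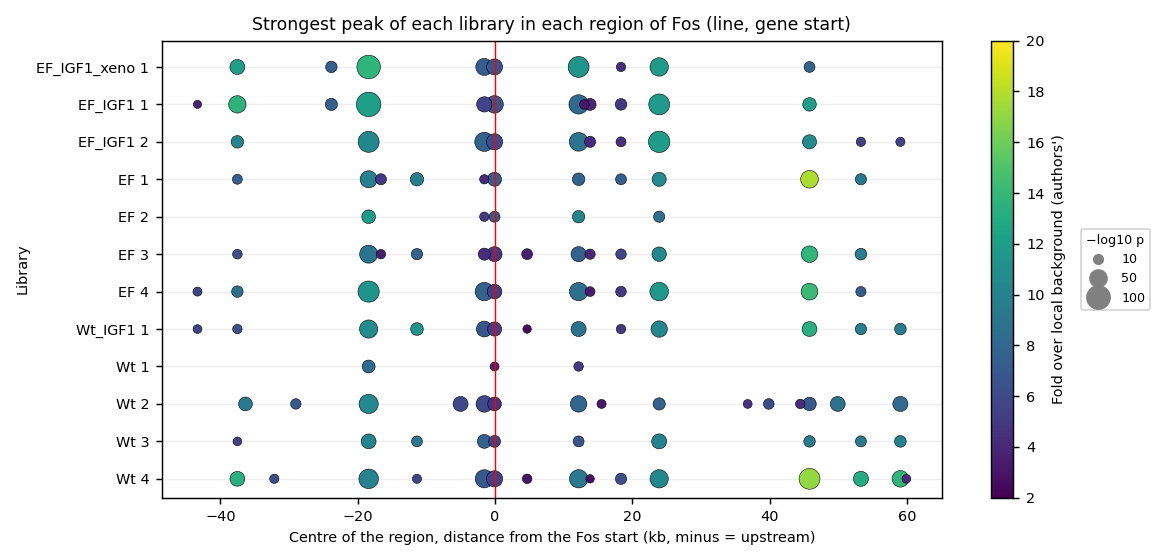
Strongest peak of each library in each Fos region, by distance of the region's centre from the gene start in kb, with colour for the authors' fold over local background and size for their −log10 p. The column of large points 18.4 kb upstream runs through all 12 rows, and 8 points in the Wt replicate 2 row stand in columns of their own.

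Fosb, an immediate early gene with a short splice form known from the brain, had 6 of 8 regions called in EF_IGF1_xeno, 7 and 5 in EF_IGF1, 7, 4, 4 and 5 in EF, 6 in Wt_IGF1 and 3, 7, 5 and 6 in Wt. The groups overlapped. Its region open in all 12 libraries lay 9.9 kb upstream (chr7:19319477-19320417) and had folds between 4.44 in Wt replicate 1 and 12.1 in EF replicate 3. EF replicate 3 was the only library without peaks in the regions chr7:19307537-19308959, inside the gene, and chr7:19316260-19317336, upstream. None of the 8 Fosb regions was private to 1 library.

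Fosl1, which encodes Fra-1 and is a target of AP-1 itself, had 3 of 3 regions called in EF_IGF1_xeno, 3 and 3 in EF_IGF1, 2, 1, 2 and 3 in EF, 3 in Wt_IGF1 and 0, 2, 3 and 3 in Wt. Distances at Fosl1 are counted from the lower end of the gene (chr19:5447698-5455938). The region chr19:5444586-5445407, 2290 bp outside the gene, had the highest fold in most libraries, 7.74 in EF_IGF1_xeno, 6.23 and 6.56 in EF_IGF1, 6.51 to 10.4 in EF, 6.97 in Wt_IGF1 and 8.99 and 7.07 in Wt replicates 3 and 4. It had no peak in Wt replicates 1 and 2, the pair on flowcell BSF_0654. The region chr19:5448362-5449086 inside the gene had no peak in EF replicates 1, 2 and 3 or Wt replicate 1, and folds of 3.23 to 5.37 elsewhere.

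Fosl2, which encodes Fra-2, a factor known from bone and fibrosis, had 3 of 12 regions called in EF_IGF1_xeno, 4 and 3 in EF_IGF1, 4, 3, 4 and 4 in EF, 6 in Wt_IGF1 and 1, 4, 5 and 4 in Wt. Of its regions, 2 were called in all libraries but Wt replicate 1, the one before the start and another 55.8 kb downstream (chr5:32191774-32192839). The downstream one had folds of 12.8 in EF_IGF1_xeno, 9.95 and 11.2 in EF_IGF1, 9.63 to 10.9 in EF, 9.0 in Wt_IGF1 and 8.07 to 11.2 in Wt replicates 2 to 4. The groups overlapped there as well. A region 12.6 kb upstream (chr5:32123663-32124108) was called in Wt_IGF1 with a fold of 10.8 and in Wt replicates 3 and 4 with 5.77 and 6.69, all on flowcell BSF_1013. A region 23.8 kb upstream (chr5:32112332-32113061) was called in Wt replicates 1 and 2 only, with folds of 4.35 and 12.9, both on flowcell BSF_0654.

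Atf3, a stress-induced member that pairs with Jun, had 5 of 14 regions called in EF_IGF1_xeno, 7 and 8 in EF_IGF1, 6, 2, 6 and 8 in EF, 8 in Wt_IGF1 and 3, 13, 6 and 10 in Wt. The difference between EF and Wt was -2.5 regions (p = 0.4, exact two-sided permutation test, adjusted p 1), and the ranges overlapped. A region 41.5 kb upstream (chr1:191224022-191225731) was called in all 12 libraries, with folds between 5.17 in Wt replicate 1 and 8.56 in EF_IGF1_xeno. The region over the start (chr1:191182340-191183893) lacked a peak in EF replicate 2 alone, and had folds of 5.62 in EF_IGF1_xeno, 6.65 and 4.88 in EF_IGF1, 5.28 to 8.72 in EF, 8.91 in Wt_IGF1 and 4.16 to 6.96 in Wt.

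Inside Atf3, 10.7 kb after the start (chr1:191172471-191172835), a peak was called in Wt_IGF1 with a fold of 6.51 and in Wt replicates 2, 3 and 4 with 4.45, 5.91 and 3.67. None of the 7 EF, EF_IGF1 and EF_IGF1_xeno libraries had it. The region 47.3 kb upstream (chr1:191230259-191231085) held the highest −log10 p at Atf3, 69.4 in Wt replicate 2. It had a peak in EF_IGF1 replicate 2 (fold 4.86), EF replicate 4 (8.63), Wt_IGF1 (10.8) and all 4 Wt libraries (6.34, 10.9, 11.3 and 13). In the other direction, the region 60.7 kb upstream (chr1:191243876-191244252) had a peak in EF_IGF1_xeno (5.76), both EF_IGF1 libraries (7.64 and 5.83) and EF replicate 4 (7.11), and in no Wt or Wt_IGF1 library.

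Batf, a partner of Jun best known from lymphocytes, had no peak on its start window in any library and few regions in most. Of its 8 regions 1 was called in EF_IGF1_xeno, 2 and 2 in EF_IGF1, 1 in each EF library, 2 in Wt_IGF1 and 1, 5, 1 and 3 in Wt. The library with 5 was Wt replicate 2, in which the blood marker regions were called most often, and the part of that in the Batf count was not tested. That library had a peak in 41.0% of all regions. The region called in all 12 libraries was 18.9 kb into the gene (chr12:85705131-85706092). Its fold was 12.1 in EF_IGF1_xeno, 7.24 and 11.8 in EF_IGF1, 5.43 to 13.8 in EF, 14.2 in Wt_IGF1 and 5.95 to 12.5 in Wt.

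Maff, a small Maf protein without an activation domain that pairs with other leucine-zipper factors, had 1 of 6 regions called in EF_IGF1_xeno, 2 and 2 in EF_IGF1, 2, 1, 1 and 2 in EF, 4 in Wt_IGF1 and 0, 4, 3 and 3 in Wt. Wt replicate 1, with none, lay below every EF library, and the other 3 Wt libraries lay above them. The difference of -1.0 regions was 0.0 with the 20000 strongest peaks of each list and -0.0957 per 10000 regions called (exact permutation p = 0.571). Without Wt replicate 1 it was -1.83 (exact permutation p = 0.0286, adjusted p 0.892). The region over its other 2 starts (chr15:79347147-79348649) was called in all libraries but Wt replicate 1, with folds of 6.36 in EF_IGF1_xeno, 5.76 and 5.98 in EF_IGF1, 5.69 to 8.7 in EF, 4.94 in Wt_IGF1 and 3.77 to 7.08 in Wt. The region over its most upstream start (chr15:79346170-79346718) had a peak in EF_IGF1 replicate 2 (2.47), Wt_IGF1 (4.66) and Wt replicates 3 and 4 (5.05 and 3.47). The highest −log10 p at Maff, 58.7 in Wt replicate 2, was at chr15:79357092-79358044, inside the gene.

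To compare EF with Wt by region, a region counted as gained when at least 3 of 4 EF libraries and no Wt library had a peak, and as lost in the mirror case. Of the 109 regions 1 was gained (0.917%, against 1.15% of all regions), the Jun region 19.4 kb downstream. Lost were 2 (1.83%, against 0.978%), the Fos region 59.1 kb downstream and the Atf3 region 10.7 kb after the start. Both shares were near those of all regions. With the 2 EF and 2 Wt libraries of flowcell BSF_1013 alone, 1 region was gained (0.917%, against 1.89%) and 5 were lost (4.59%, against 4.4%), the 5 being those 2, the Fosl2 region 12.6 kb upstream and 2 of Maff. On flowcell BSF_0654 alone, 5 were gained (4.59%, against 4.06%), 3 at Jun and 1 each at Fosl1 and Fosl2, and 2 were lost (1.83%, against 0.516%). With Wt replicates 1 and 2 left out, which differ most in list length and blood marker regions, 2 were gained (1.83%, against 1.46%), both at Jun, and 5 lost (4.59%, against 3.92%). The Jun region 19.4 kb downstream was gained on BSF_0654 and in that last comparison, but not on BSF_1013, where EF replicate 3 lacked it. It was called in EF replicates 1, 2 and 4, and the rule still asked for 3 EF libraries when 1 was left out. Leaving out any of those 3 thus removed it by construction, and 2 regions were gained without Wt replicate 2 or 4. The Fos and Atf3 regions, called in Wt replicates 2, 3 and 4, were likewise no longer lost without any 1 of these, by construction. Without EF replicate 4, 4 regions were lost. No share of all regions was set beside the counts with 1 library left out.

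Counted by gene, none of the 10 members passed. Over 17956 genes the test of regions called per library gave 0 with an adjusted p under 0.05 (0.0%) and 50 with an unadjusted p under 0.05 (0.278%), none of them a member. The design allowed no p under 0.0286. Differences of EF minus Wt, in regions per library, were -1.5 at Batf and -1.0 at Maff, -0.25 at Fosb and Junb, 0.25 at Fosl2 and Jund and 0 at Fosl1, with unadjusted p between 0.429 and 1 in the exact permutation test. A p that misses the threshold does not show that the groups were alike.

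For IGF1 in EF cells, the 2 EF_IGF1 libraries were set against EF replicates 3 and 4, on the same flowcell, and a region was gained when both EF_IGF1 libraries and neither EF library had a peak. Gained were 4 regions (3.67%, against 2.66% of all regions): the Jun region 1.46 kb into the gene, a Jun region 48.7 kb upstream (chr4:95100749-95101066), the Jund region 3.06 kb after the start and an Atf3 region 56.5 kb upstream (chr1:191239596-191239983). All 4 were modest, with folds between 2.15 and 5.17 in EF_IGF1. The Jun region 48.7 kb upstream also had a peak in Wt replicate 3. The Atf3 region 56.5 kb upstream also had one in Wt_IGF1 and in Wt replicates 2 and 4. The other Jun region and the Jund region had none in Wt or Wt_IGF1. Lost was 1 (0.917%, against 2.07%), an Atf3 region 10.6 kb upstream (chr1:191193592-191194347), with folds of 7.38 and 4.74 in EF replicates 3 and 4 and 10.3 in EF replicate 1. That Atf3 region also had a peak in Wt_IGF1 and in Wt replicates 2 and 4. With 2 libraries a group no test was made. Within the lines as titled, S_221 alone gave 10 gained and 6 lost and S_220 alone 21 and 7. Without EF_IGF1 replicate 1, the library labelled S_220, 9 were gained and 2 lost. Without EF_IGF1 replicate 2 they were 12 and 2, and without EF replicate 4 they were 10 and 6. Without EF replicate 3 the counts were 5 and 2. These alternative counts have no share of all regions beside them, so nothing particular to the members is read from them.

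For IGF1 in Wt cells, 1 library was set against Wt replicates 3 and 4, with no replicate check. Gained were 6 of the 109 regions (5.5%, against 10.3% of all regions), 3 at Jun and 1 each at Fos, Fosl2 and Maff. The 3 Jun regions lay 16.6 kb downstream (chr4:95035529-95035809, fold 5.83 in Wt_IGF1), 29.6 kb upstream (chr4:95081597-95082056, fold 6.29) and 65.4 kb upstream (chr4:95117475-95117674, fold 3.93). The Jun region 16.6 kb downstream also had a peak in EF replicate 1 (fold 6.39). That 29.6 kb upstream had one in Wt replicate 2 (7.01), EF replicates 1, 3 and 4, both EF_IGF1 libraries and EF_IGF1_xeno. The Maff region had peaks in Wt replicate 2 (8.25) and EF replicate 1, the Fos region in EF replicate 4 and EF_IGF1 replicate 1. The Jun region 65.4 kb upstream and the Fosl2 region were called in Wt_IGF1 alone. None of the 109 was lost (0.0%, against 0.639%). Against Wt replicate 4 alone 7 were gained and 8 lost, and against Wt replicate 3 alone, titled BM_unt and thus the match of BM_IGF1 by title, 14 and 2. Wt_IGF1 had the longest of the 12 lists, and with the 20000 strongest peaks of each list 1 was gained and 1 lost. No share of all regions was set beside these alternative counts. With 4 regions gained in EF_IGF1 and 6 in Wt_IGF1, no region of the members was gained in both. The share of all regions gained in both was not counted, so nothing particular to the members is read from this.

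For the EF_IGF1_xeno library, set against both EF_IGF1 libraries, none of the 109 regions was gained (0.0%, against 0.784%). Lost were 7 (6.42%, against 7.05%), 2 each at Jun, Jund and Atf3 and 1 at Fos. They included the Jun regions 14.1 kb downstream and 48.7 kb upstream, the Jund region 3.06 kb after the start and the Atf3 region 56.5 kb upstream. The last 3 were among the 4 regions gained in EF_IGF1. A region gained there has a peak in both EF_IGF1 libraries, as the rule for a loss here requires. The share of all regions gained in EF_IGF1 that were lost here was not counted. The Jun regions 1.46 kb into the gene and 19.4 kb downstream and the Atf3 region 60.7 kb upstream had peaks in EF_IGF1_xeno as well. They were the 3 regions of the members (2.75%, against 2.48%) called in all 3 libraries and in no Wt or Wt_IGF1 library. The list of EF_IGF1_xeno was shorter than either EF_IGF1 list. With the 20000 strongest peaks of each list, which left 52 member regions, 3 were gained and 1 lost. Against EF_IGF1 replicate 2 alone, the library of its own line, 2 were gained and 14 lost, and against EF_IGF1 replicate 1 alone 1 and 17. No share of all regions was set beside these alternative counts, so nothing particular to the members is read from them.

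Other genes of the pathway had counts of the same order. Of 31 further leucine-zipper genes, 30 had regions, 376 in all, with 4 gained and 5 lost in EF against Wt (1.06% and 1.33%, against 1.15% and 0.978% of all regions) and 14 gained and 8 lost in EF_IGF1 against EF (3.72% and 2.13%, against 2.66% and 2.07%). These shares were near those of all regions. Cebpb, a factor of adipocyte and osteoblast differentiation, had 5 of 32 regions gained in EF_IGF1 and 2 lost in EF. Atf6, a sensor of endoplasmic reticulum stress, had 4 of 26 regions lost in EF_IGF1. Bach2 had 2 gained in each of the 2 comparisons, among 67 regions, and Nfe2 had 1 gained in each and 1 lost in EF. The 21 genes upstream of AP-1, MAP kinases and the SRF partners among them, held 240 regions, with 3 gained and 2 lost in EF (1.25% and 0.833%) and 2 gained and 6 lost in EF_IGF1 (0.833% and 2.5%). At Mrtfa, a coactivator of SRF, 2 regions were lost in EF and 3 in EF_IGF1, while Elk3, Mrtfb and Map3k1 each had 1 gained in EF. The 19 other immediate early genes held 259 regions, with 2 gained and 2 lost in EF (0.772% each) and 4 gained and 7 lost in EF_IGF1 (1.54% and 2.7%). Among them Ccn1 and Dusp1 each had 1 gained and 1 lost in EF_IGF1, and Dusp6 and Klf4 each had 1 lost there.

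Likeness was measured as the Pearson correlation, over the 12 libraries, between the regions called at the 10 members together and those called at each of 4417 other genes with at least 10 regions, both per 10000 regions called in the library. Among the most alike were Wee1 (r = 0.973, 11 regions), Mon2 (0.968, 13 regions), Rab10 (0.967, 15 regions) and Atp6v1c1 (0.964, 24 regions). The measure for the members was 20.1 in Wt replicate 1, the shortest list, and 6.92 to 10.7 in the other 11 libraries, so that these correlations rest on that library, and the libraries share their depth across genes.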

How the data were processed

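Open chromatin was measured by ATAC-seq in 12 libraries, and 12 lists of peaks, 1 per library, were used. Per the submitters' processing notes, the tools and builds named are MACS2 and GRCm38.p3. The aligner and the peak settings were not given in the sources used here. For each peak the authors deposited its position, a fold over local background (a ratio), a −log10 p, a −log10 q, a score (10 times the −log10 q, checked on the files) and a summit. Fold and p belong to 1 list and describe peaks within it.

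Peaks on the autosomes and X were merged and assigned by interval to the nearest of 21631 RefSeq protein-coding genes (GRCm38.p6 table). A library called a region when 1 of its peaks lay in it. Summit reads were solved from fold and −log10 p under a Poisson model, and 610 of 610 member peaks gave whole reads within 0.001. Regions per gene were tested by exact two-sided permutation with Benjamini-Hochberg adjustment over all genes. The test was first run on simulated independent counts, with large changes planted in genes with many regions called. That simulation held no flowcells, shared lines or differing list lengths, so it does not show how the test behaves with them or at genes with few regions. Python 3.11.15, numpy 2.4.6, pandas 2.3.3, scipy 1.17.1 and matplotlib 3.10.9 were used. The members and lists were chosen with earlier results of these data known. Named were all 10 members, for each the region at its start, its strongest region and every region gained or lost in EF or EF_IGF1, and at most 4 genes of each further list. Regions named outside this rule, such as those open in all libraries or following the line names, were chosen after their values were seen. Replicate numbers follow the order of the samples and pair nothing. Alternatives changed the peak threshold, peak extent, list length, merging overlap, gene distance, scaling, flowcell, line and libraries. The 2 that drop Wt replicates and the one of line S_220 were added after seeing the data. Of the 5 genes most like the members in their calls, 1 is not reported here.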

Additional observations from a re-analysis of the deposited data

Results flagged for a closer look

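Within the groups of 4 libraries, 22 checks asked whether a single library stood far from the rest of its group in regions called, for each of the 10 genes and for their sum. In 3 of them the gap of 1 library to its neighbour exceeded Dixon's critical value. Chance flags about 1 in 20 groups of untied values, but that rate does not hold here: in all 3 groups the other libraries were tied, and then any library that differs passes. At Fosl2, EF replicate 2 had 3 regions called and the other EF libraries 4 each. At Junb, EF replicate 2 had 2 and the other EF libraries 3 each. At Jund, Wt replicate 4 had 2 and the other Wt libraries 1 each. Each gap is a single region, and EF replicate 2 had the shortest list of its group.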

How the results depend on the processing

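No paired test was run, since the replicate numbers follow sample order only and the counts of calls come from no test. The titles do match EF_IGF1 and EF by line on BSF_1013, and Wt_IGF1 with Wt replicate 3. For EF_IGF1, a region gained or lost in both line pairs is what the rule already counts. The count of genes with an adjusted p under 0.05 stayed at 0 under each alternative run. With the 20000 strongest peaks of each list, member regions numbered 52, gained and lost were 2 and 0 for EF_IGF1, 1 and 1 for Wt_IGF1 and 3 and 1 for EF_IGF1_xeno. Within 10 kb there were 49 member regions, with 0 gained and 1 lost for EF, 2 and 0 for EF_IGF1, 2 gained for Wt_IGF1 and 3 lost for EF_IGF1_xeno. Merging at 100 bp gave 2 lost for EF_IGF1. For EF against Wt, 5 were lost on BSF_1013, 5 gained on BSF_0654, and 2 gained and 5 lost against Wt replicates 3 and 4. Line S_221 alone gave 10 gained and 6 lost for EF_IGF1, and line S_220 alone, added after seeing the data, 21 and 7. Dropping each library in turn gave 0 to 2 gained and 0 to 4 lost for EF, 5 to 12 and 2 to 6 for EF_IGF1, 7 to 14 and 2 to 8 for Wt_IGF1, and 1 to 2 and 14 to 17 for EF_IGF1_xeno. A group left with 1 library meets the rule more easily by its construction. In EF against Wt the rule still asked for 3 libraries, so a region called in just 3 fails once 1 of these is left out. Otherwise the cause was not tested. Shares of all regions accompany the flowcell settings and that with Wt replicates 3 and 4, not the other alternatives. Nothing particular to the members is read from those.

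Differences of EF minus Wt in regions per gene changed sign as follows, none with a test passed in either form. Junb became 0.75 with a −log10 q of 5 or more and 0.75 with the 20000 strongest peaks, where Fosb became 0.25 and Jund -0.25. Per 10000 regions called, Fosl2 became -0.0387 and Jund -0.174, and on BSF_1013 Fosl2 became -0.5. With 1 library left out, Fos ranged between -3.33 and 0.917, Fosb between -1.0 and 0.333, Fosl2 between -0.583 and 0.75, and Junb between -0.917 and 0.417. Jun kept its sign in each alternative, between 0.25 within 10 kb and 3.5. Among the 252 alternative values, the main counts moved by over 1.5 times in 46 and stayed within that in 56. The remaining values were the differences per gene, of which 16 changed sign and 134 did not. Peak lists show calls and not levels, so a missing call in a short list, as in Wt replicate 1, does not show closed chromatin. The Wt cultures differ between the flowcells, so those effects cannot be told apart.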

Other observations

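The further lists were also read in the comparisons that rest on 1 library, as counts with no test. Wt_IGF1 against Wt had 36 gained and 5 lost among the 376 regions of the other leucine-zipper genes (9.57% and 1.33%), 32 and 2 among the 240 regions upstream of AP-1 (13.3% and 0.833%), and 17 and 1 among the 259 regions of the other immediate early genes (6.56% and 0.386%). The shares of all regions were 10.3% and 0.639%. Bach2, a repressor with 67 of the 376 regions, held 13 of these 36 gains. EF_IGF1_xeno against EF_IGF1 had 3 gained and 31 lost, 0 and 18, and 3 and 6 in the same lists, with losses of 8.24%, 7.5% and 2.32% against 7.05% of all regions.

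Between pairs of libraries, the regions of the 10 genes were shared most by Wt_IGF1 and Wt replicate 4, with 48 of the 63 regions called in either (76.2%), and by EF replicates 1 and 3, both titled S_220 and on different flowcells, with 38 of 51 (74.5%). EF_IGF1 replicate 1 shared 45 of 63 (71.4%) with EF replicate 4 and 37 of 65 (56.9%) with EF replicate 3, the library of the line in its title. EF replicates 2 and 4, both titled S_221, shared 27 of 50 (54.0%), and EF replicate 2 had the shorter list.

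Epithelial marker regions, 41 near 5 genes, were called at 43.9% in EF_IGF1_xeno, 53.7% and 51.2% in EF_IGF1, 19.5% to 51.2% in EF, 43.9% in Wt_IGF1 and 0.0% to 31.7% in Wt. Endothelial marker regions, 72 near 6 genes, were called at 23.6% in EF_IGF1_xeno, 29.2% and 31.9% in EF_IGF1, 11.1% to 51.4% in EF, 48.6% in Wt_IGF1 and 0.0% to 36.1% in Wt. Of all regions with a gene, 27.9% were called in EF_IGF1_xeno and 38.1% and 41.0% in EF_IGF1. In EF the share was 17.6% to 43.9%, in Wt_IGF1 52.5% and in Wt 5.37% to 44.5%. No cell type was named from the markers.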
